A study of Mus musculus with 8 samples.

Results

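Transcripts of 9 apolipoprotein genes (Apoa1, Apoa2, Apoa4, Apoa5, Apob, Apoc1, Apoc2, Apoc3 and Apoe) and of Mttp were compared between livers of wild-type and Rbfox2 knockout mice. These 10 genes were found by symbol among the 46078 genes of the count table, and all 10 were among the 14654 genes with enough counts to be tested. The 8 samples were 5 livers labelled wild-type (WT) and 3 labelled Rbfox2 knockout (Rbfox2 KO), each taken here as 1 mouse. Mice were fasted after 22 weeks with 30% (w/v) fructose in the water and a control diet. Per the study's methods, mice entered the diet at 8 weeks of age and were male unless stated otherwise. By the study's account, both groups carried loxP-flanked Rbfox2 alleles. The Rbfox2 KO mice also carried a Cre recombinase driven by the albumin promoter, meant to delete Rbfox2 selectively in hepatocytes.

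Apolipoproteins are the proteins of lipoprotein particles, which carry cholesterol and triglycerides in plasma. To make very low-density lipoprotein (VLDL), a hepatocyte translates apolipoprotein B into the endoplasmic reticulum, where the microsomal triglyceride transfer protein encoded by Mttp loads it with lipid. The small exchangeable apolipoproteins join VLDL or high-density lipoprotein (HDL) later and act as enzyme cofactors, inhibitors and receptor ligands. The comparison addresses whether loss of a splicing regulator from hepatocytes is accompanied by a change in the transcripts of this secretory system.

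For none of the 10 transcripts did the genotype difference pass the test. At an adjusted p of 0.05 by the quasi-likelihood test of edgeR, 0 of the 10 were called, where 0% of all tested genes were. At an unadjusted p under 0.05 there were 0 of the 10, against 4.74% of all tested genes (2.41% higher and 2.33% lower in Rbfox2 KO). DESeq2 also called 0 of the 10, against 0.404% of all the genes it tested. In 0 of the 10 were the groups free of overlap, against 3.71% of all tested genes (1.89% higher and 1.82% lower in Rbfox2 KO). Among the WT mice, 8 of the apolipoprotein transcripts were highest in WT 1, where Apob was lowest.

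Total counts ranged from 24829693 to 37823155 per sample, and differences between groups in the totals were not detected (exact permutation p = 0.839). Levels are given as CPM, counts scaled to a common library size with the trimmed mean of M-values (TMM). The deleted gene, Rbfox2, was at 13.96 to 23.2 CPM across the WT samples, and Rbfox2 KO 1 to 3 had 6.84, 8.61 and 12.4 CPM, so the groups did not overlap. Its log2 fold change was -1.03 ± 0.21 (SE), with an adjusted p of 0.328 by edgeR and 0.0019 by DESeq2. The 7 hepatocyte markers summed to 68236 to 75203 CPM in WT and 65294 to 77680 CPM in Rbfox2 KO, and 0 of 7 had an unadjusted edgeR p under 0.05. In bulk livers, fewer cells of a type and less RNA per cell cannot be told apart. Of 8 enterocyte markers, Sis, Alpi, Cdx1 and Cdx2 had 0 counts in all 8 libraries, and the sum of 88.7 to 170.4 CPM came almost wholly from Fabp2. Rbfox2 KO 1 stood apart in the sum of 12 pancreatic exocrine markers, at 463 CPM, where the other 7 libraries held 4.78 to 17.2 CPM. It also had the highest stellate cell sum, 249.99 CPM against 158.9 to 200.4 CPM elsewhere, and the lowest share of major urinary protein counts, 6.54% against 17.8% to 35.3%. The 7 Kupffer cell markers summed to 260.9 CPM in Rbfox2 KO 1 and 264.3 CPM in Rbfox2 KO 3, above all WT samples (198 to 229 CPM), and to 200.7 CPM in Rbfox2 KO 2. Of these 7 markers, 1 had an unadjusted edgeR p under 0.05 (4.74% of all tested genes). The part of these cells in the apolipoprotein values was not tested. The 10 muscle markers summed to 242 CPM in it, against 9.42 to 398 CPM in WT.

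Of the 10 genes, 7 lie in 2 clusters, where the gap between neighbours runs from 2.47 to 25.2 kb. On chromosome 9 of GRCm38, Apoa1 (ENSMUSG00000032083, 46228580 to 46230466, plus strand), Apoc3 (ENSMUSG00000032081, 46232933 to 46235636, minus strand), Apoa4 (ENSMUSG00000032080, 46240696 to 46243459, plus strand) and Apoa5 (ENSMUSG00000032079, 46268633 to 46271919, plus strand) span 43.3 kb. On chromosome 7, Apoe (ENSMUSG00000002985, 19696109 to 19699188), Apoc1 (ENSMUSG00000040564, 19689481 to 19692660) and Apoc2 (ENSMUSG00000002992, 19671579 to 19677941) span 27.6 kb, all on the minus strand. The other 3 stand alone: Apoa2 (ENSMUSG00000005681) on chromosome 1 from 171225054 to 171226379 and Apob (ENSMUSG00000020609) on chromosome 12 from 7977648 to 8016835, both on the plus strand, and Mttp (ENSMUSG00000028158) on chromosome 3 from 138089854 to 138144968 on the minus strand.

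The sequence just upstream of the start is shown for 4 of the genes, since transcripts of both clusters and of Apoa2 were all highest of the WT samples in WT 1. They are the gene with the highest mean level per length (Apoa2), the last gene of the chromosome 9 cluster (Apoa5) and the outer genes of the chromosome 7 cluster (Apoe and Apoc2). Each line gives the 250 bases before a RefSeq start (for Apoa5 the more upstream of 2), 5′ to 3′ on the strand of the gene, at chr1:171224804-171225053 for Apoa2, chr9:46268358-46268607 for Apoa5, chr7:19699189-19699438 for Apoe and chr7:19677942-19678191 for Apoc2 (RefSeq, GRCm38.p6). Capitals mark matches to the TATA box, FOXA and nuclear receptor motifs that are spelled out after the sequences, and the windows lie outside the extent of the gene given above:
Apoa2: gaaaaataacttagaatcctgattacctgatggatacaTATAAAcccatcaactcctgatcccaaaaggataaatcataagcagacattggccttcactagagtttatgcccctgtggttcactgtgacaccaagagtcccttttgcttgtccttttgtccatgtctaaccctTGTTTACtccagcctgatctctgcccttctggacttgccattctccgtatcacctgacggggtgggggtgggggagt
Apoa5: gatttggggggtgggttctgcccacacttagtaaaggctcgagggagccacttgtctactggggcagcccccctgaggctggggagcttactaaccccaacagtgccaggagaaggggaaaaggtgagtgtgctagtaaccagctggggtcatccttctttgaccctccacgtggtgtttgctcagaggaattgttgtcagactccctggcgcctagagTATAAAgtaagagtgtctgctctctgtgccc
Apoe: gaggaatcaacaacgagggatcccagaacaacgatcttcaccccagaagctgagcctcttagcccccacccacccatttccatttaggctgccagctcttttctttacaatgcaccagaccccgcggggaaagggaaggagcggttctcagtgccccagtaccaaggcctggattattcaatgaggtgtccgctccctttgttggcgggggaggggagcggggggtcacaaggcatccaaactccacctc
Apoc2: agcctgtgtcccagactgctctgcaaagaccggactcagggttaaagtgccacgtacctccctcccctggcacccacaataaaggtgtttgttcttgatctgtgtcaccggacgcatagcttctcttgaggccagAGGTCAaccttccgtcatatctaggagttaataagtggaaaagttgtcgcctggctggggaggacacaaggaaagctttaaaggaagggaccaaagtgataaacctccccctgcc
Promoters of 8 of the 10 genes were in the RefSeq table, several with more than 1 start, and those of Apoc1 and Apoc3 were not analysed here. TATAAA, the core of the TATA box, occurred on either strand before at least 1 start of Apoa2, Apoa5, Apob and Apoe. It was in 12.4% of 32851 single promoter windows of the same length, while a gene with several starts has several windows. On the strand of the gene it lay 212 to 207 bases before the Apoa2 start and 31 to 26 before the Apoa5 start shown. The same Apoa5 match lay 56 to 51 bases before the other Apoa5 start, where the gene extent given above begins. For Apob it lay 60 to 55 bases before the start. For Apoe it lay 96 to 91 bases before another start than the one shown. Whether these matches act as TATA boxes was not tested. The FOXA letters TGTTTAC occurred before Apoa2, from 77 to 71 bases before the start, and in 3.17% of all windows. The nuclear receptor core element AGGTCA occurred before Apoc2, from 115 to 110 bases before the start, and before another start of Apoa2, and in 14.0% of all windows. The HNF4 letters CAAAGTCCA occurred in 0 of the 8, against 0.384% of all windows. Within the 4 windows shown, no match overlaps another.

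Levels were compared between genes as CPM per kilobase of merged exons. The genes that encode abundant HDL and remnant proteins led the order in WT livers, and the VLDL scaffold and its loading enzyme closed it. Apoa2, the second main protein of HDL, was at 12270.1 ± 2827 CPM per kilobase (SD, n = 5), and Apoe, the ligand for uptake of remnants, at 7871 ± 1283. Apoa1, the main HDL protein and activator of cholesterol esterification, was at 4140.2 ± 1041, and Apoc1, an inhibitor of remnant uptake, at 2975 ± 484. Apoc3, an inhibitor of triglyceride clearance, was at 1508 ± 418 CPM per kilobase, and Apoa4, an apolipoprotein of triglyceride-rich particles, at 1289.6 ± 444. Apoa5, which promotes triglyceride clearance, was at 567 ± 77.3, and Apoc2, the cofactor of lipoprotein lipase, at 318 ± 80.1. Apob, the longest transcript with 13.9 kb of exons, was at 239 ± 47.4 CPM per kilobase, and Mttp at 38.3 ± 3.08.

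Neighbours in this order were compared by their ranges, and their order within each liver was not compared. The ranges over the 8 samples overlapped between Apoa2 and Apoe, Apoa1 and Apoc1, Apoc3 and Apoa4, Apoa5 and Apoc2, and Apoc2 and Apob. They did not overlap between Apoe and Apoa1, Apoc1 and Apoc3, Apoa4 and Apoa5, or Apob and Mttp. The same order held in Rbfox2 KO livers except that Apoa4, at 1979 ± 1549 CPM per kilobase (SD, n = 3), preceded Apoc3, at 1663 ± 466. Per kilobase of the longest transcript instead, Apoc3 preceded Apoa4 in Rbfox2 KO livers (2378 and 1979) and Apoe preceded Apoa2 (11374 and 10725), while the WT order was the same. Together the 10 transcripts made up 3.23% (95% Wilson interval 3.22% to 3.23%) of counts in WT 3, the lowest sample, and 5.57% (5.56% to 5.58%) in Rbfox2 KO 1, the highest. In WT livers the share averaged 3.88% ± 0.675 (SD, n = 5) and in Rbfox2 KO livers 4.22% ± 1.19 (SD, n = 3), and the groups overlapped. WT 3 also had the largest share of major urinary protein (Mup) counts, 35.3%, and Rbfox2 KO 1 the smallest, 6.54%. With the Mup genes left out, the group difference of 0.335 percentage points became much smaller. With each sample left out in turn, it ran from -0.338 without Rbfox2 KO 1 to 0.800 without Rbfox2 KO 3.

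**Figure D1:**
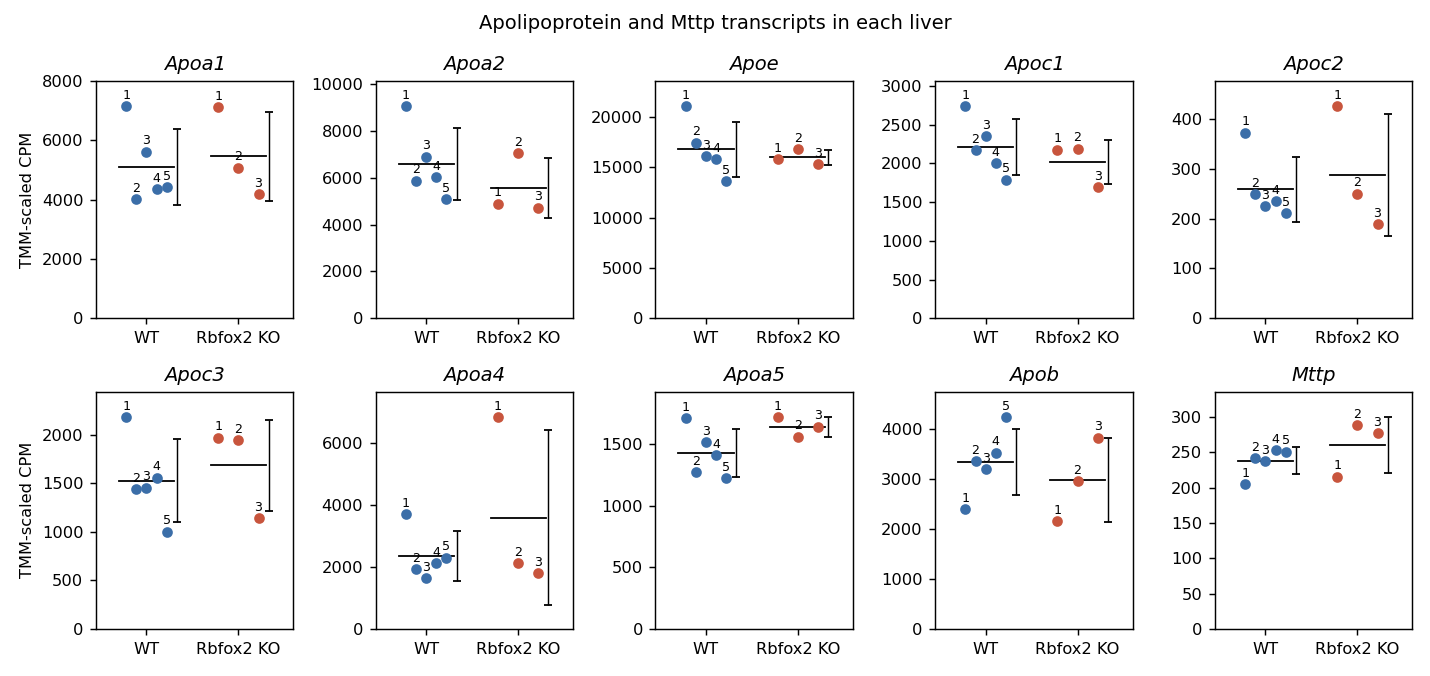
TMM-scaled CPM (vertical axis, from 0) of each transcript in each liver, with the sample number beside each point, the group mean as a horizontal line and 1 SD as the bar beside it (WT n = 5, Rbfox2 KO n = 3). The groups overlap in all 10 panels, and WT 1 is the highest WT sample in the 8 panels from Apoa1 to Apoa5 and the lowest in those of Apob and Mttp.

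The particle scaffold and its loading enzyme were examined first. Apob had 2389.9, 3349.5, 3190.0, 3522 and 4229 CPM in WT 1 to 5, while Rbfox2 KO 1 to 3 had 2148, 2953 and 3821 CPM. Sample 1 of each group was its lowest, with Rbfox2 KO 1 the lowest of all and WT 5 the highest, and the groups overlapped. WT livers averaged 3336 ± 661 CPM (SD, n = 5) and Rbfox2 KO livers 2974 ± 837 CPM (SD, n = 3), with an exact permutation p of 0.536. By edgeR this was a log2 fold change of -0.17 ± 0.22 (SE), with a 95% interval of the fold from 0.633 to 1.26. Without Rbfox2 KO 1 the log2 fold change was 0.02, so that library decided the direction.

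Mttp had the lowest SD of log2 CPM of the 10 transcripts among the WT samples. It had 205 CPM in WT 1 and 241, 238, 253 and 251 CPM in WT 2 to 5, against 216, 289 and 277 CPM in Rbfox2 KO 1 to 3. Again sample 1 of each group was its lowest, and Rbfox2 KO 2 and 3 lay above all 5 WT samples. The means were 238 ± 19.1 CPM (SD, n = 5) and 260.4 ± 39.2 CPM (SD, n = 3), with an exact permutation p of 0.25. On the log2 scale the difference was 0.13 ± 0.12 (SE), and the 95% interval of the fold was 0.908 to 1.32. Without Rbfox2 KO 1 the CPM difference was 42.5, with an exact permutation p of 0.0476. That is the smallest p that 5 against 2 samples allow, and it was fixed once the lowest Rbfox2 KO sample was left out. Each sample was left out in turn for each transcript, and these p-values were not corrected for their number. The edgeR adjusted p of Mttp did not pass without Rbfox2 KO 1 or in any other alternative. Mttp shares 457 bases, or 7.36% of its exons, with Trmt10a on the opposite strand, which had 68 to 131 counts per library against 5562 to 9904 for Mttp.

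Of the chromosome 9 genes, Apoa4 and Apoc3 had the largest SD of log2 CPM among the WT samples. Apoa4 had 3711, 1937, 1627, 2124 and 2304 CPM in WT 1 to 5, while Rbfox2 KO 1 to 3 had 6834, 2132 and 1810.4 CPM. Rbfox2 KO 1 was the highest sample and WT 1 the next, and Rbfox2 KO 2 and 3 lay within the range of the WT samples. The means of 2341 ± 806 CPM (SD, n = 5) and 3592 ± 2812 CPM (SD, n = 3) gave an exact permutation p of 0.5. The estimate of the log2 fold change was 0.62 ± 0.44 (SE), with a fold interval of 0.768 to 3.07, and it became -0.25 without Rbfox2 KO 1. That library had the highest sums of pancreatic and of stellate cell markers, and their part in the Apoa4 value was not tested.

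An antisense gene, Gm10680, shares 632 bases, or 34.8% of the exons, with Apoa4. It had 2235 counts in Rbfox2 KO 1 and 17 to 707 in the other samples, which equals 0.0284% to 1.17% of the Apoa4 counts. Without knowing whether strand was used in counting, reads of the pair cannot be assigned with certainty.

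Apoa1 had 7149, 4033, 5625, 4357 and 4423 CPM in WT 1 to 5, while Rbfox2 KO 1 to 3 had 7119, 5083 and 4180.2 CPM. Sample 1 was the highest of each group, at nearly equal levels, and the groups overlapped throughout. The log2 fold change was 0.09 ± 0.24 (SE), with a fold interval of 0.742 to 1.54, and -0.15 without Rbfox2 KO 1. Apoc3 had 2184, 1441, 1457, 1561 and 1003 CPM in WT 1 to 5, while Rbfox2 KO 1 to 3 had 1972, 1946 and 1140.3 CPM. WT 5 was the lowest sample and WT 1 the highest, so that the Rbfox2 KO samples lay inside the WT range. Its log2 fold change was 0.14 ± 0.25 (SE), with a fold interval of 0.749 to 1.62.

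Apoa5 was the transcript with the smallest unadjusted edgeR p of the 10, 0.179. It had 1712, 1277, 1519, 1413 and 1228 CPM in WT 1 to 5, while Rbfox2 KO 1 to 3 had 1719.7, 1562 and 1645 CPM. The 3 Rbfox2 KO values were close to each other and above 4 of the 5 WT samples, but WT 1 lay between Rbfox2 KO 3 and 1. The means were 1429.9 ± 195 CPM (SD, n = 5) and 1642 ± 78.8 CPM (SD, n = 3), with an exact permutation p of 0.125. This gave a log2 fold change of 0.20 ± 0.14 (SE), with a fold interval of 0.928 to 1.42 and 0.99997 as the adjusted p of edgeR. An antisense gene, Gm47544, shares 20.8% of the Apoa5 exons and was not analysed here.

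On chromosome 7, Apoe was the most abundant of the 10 in CPM. It had 21069, 17479, 16158, 15793 and 13638 CPM in WT 1 to 5, while Rbfox2 KO 1 to 3 had 15864, 16838 and 15341 CPM. WT 1 was the highest and WT 5 the lowest, and the Rbfox2 KO samples lay in the middle of the WT range. Its log2 fold change was -0.07 ± 0.18 (SE) with a fold interval of 0.723 to 1.25, and it turned to 0.02 without WT 1 and to 0.05 with library totals in place of the TMM factors. Apoe made up 36.6% to 45.9% of the counts of the 10 transcripts in the 8 libraries.

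Apoc1 had 2736, 2176, 2358, 2006 and 1790.1 CPM in WT 1 to 5, while Rbfox2 KO 1 to 3 had 2178, 2190.1 and 1692 CPM. WT 1 was the highest sample and Rbfox2 KO 3 the lowest, with the other values between them. The log2 fold change was -0.13 ± 0.17 (SE) with a fold interval of 0.705 to 1.18, and it was 0.00563 with library totals. Apoc2 had 372, 249, 224, 235 and 211 CPM in WT 1 to 5, while Rbfox2 KO 1 to 3 had 425, 249.9 and 188 CPM. Sample 1 of each group was set well above the others, and Rbfox2 KO 3 was the lowest of all. For Apoc2 the log2 fold change was 0.15 ± 0.27 (SE) with a fold interval of 0.734 to 1.69, and -0.24 without Rbfox2 KO 1. Apoc2 counts are less certain than the rest, since 88.2% of the 50-base words of its longest transcript also occur in Gm44805, a protein-coding gene on the same strand that covers 79.5% of its exons and was not analysed here.

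Apoa2, alone on chromosome 1, was the transcript with the largest fall in its estimate. It had 9048, 5881, 6906, 6020.2 and 5090.0 CPM in WT 1 to 5, while Rbfox2 KO 1 to 3 had 4894, 7048 and 4726 CPM. Rbfox2 KO 1 and 3 lay below all 5 WT samples and Rbfox2 KO 2 above 4 of them. The means were 6589 ± 1518 CPM (SD, n = 5) and 5556 ± 1295 CPM (SD, n = 3), with an exact permutation p of 0.393. In edgeR the log2 fold change was -0.25 ± 0.22 (SE), and the fold interval was 0.600 to 1.18. It was -0.11 without WT 1 and -0.0275 without WT 1 and Rbfox2 KO 1. Apoa2 thus did not share the high value of Rbfox2 KO 1 seen for Apoa1, Apoa4 and Apoc2, although it shared that of WT 1.

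Across the 10 transcripts, 6 estimates were higher and 4 lower in Rbfox2 KO, and Apoc1 and Apoe were the lower ones whose sign turned with library totals, which moved the median of all genes to 0.12. The median log2 fold change of the 10 was 0.11, against 0.000953 for all tested genes. Without Rbfox2 KO 1 it was -0.11.

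**Figure D2:**
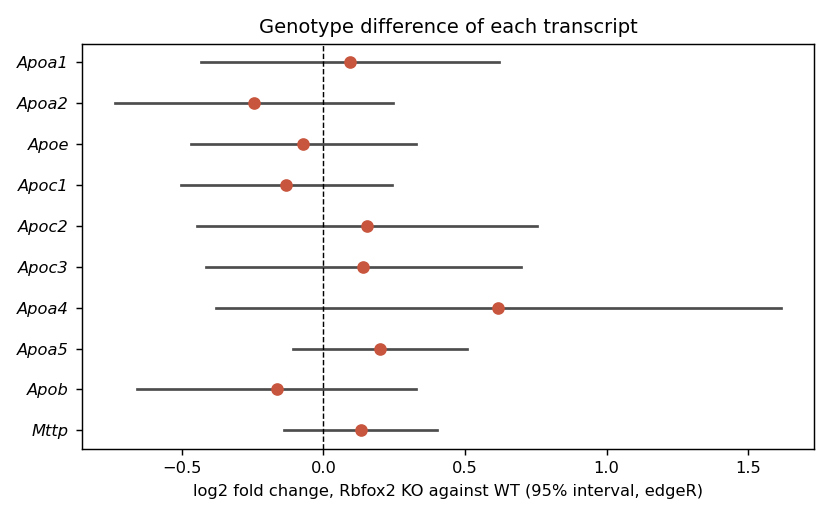
Log2 fold change of Rbfox2 KO against WT (horizontal axis) for each transcript, as points with 95% intervals from edgeR (WT n = 5, Rbfox2 KO n = 3) and a dashed line at no difference. All 10 intervals cross the line, and that of Apoa4 is the widest, from -0.38 to 1.62.

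Variation among the 5 WT mice was compared with that of the 500 tested genes nearest in level. The SD of log2 CPM was 0.45 for Apoa4, 0.40 for Apoc3, 0.34 for Apoa1 and 0.32 for Apoc2, where the median of those 500 genes was about 0.17. That median was the same, 0.1695, for Apoa1, Apoa2, Apoa4, Apob, Apoc1 and Apoe, although their levels differ widely. For such abundant transcripts the nearest 500 genes reach far down in level, so the percentiles do not compare each with genes of its own level. In that order, these values stood at percentiles 94, 93.2, 88 and 89.8 of those genes. Apoa2 (0.31), Apob (0.30), Apoc1 (0.23) and Apoe (0.23) followed, at percentiles from 70.4 to 85.8. Apoa5, with an SD of 0.19, was at percentile 59.8, and Mttp, with 0.12, at percentile 31.4. Between the highest and the lowest WT mouse, Apoa4 differed 2.28-fold and Apoc3 2.18-fold, while Mttp differed 1.23-fold.

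Much of the variation was shared between the short transcripts, and Apob ran the opposite way. All 8 transcripts other than Apob and Mttp were highest of the WT samples in WT 1, and 6 of these 8 were lowest of the WT samples in WT 5. In the Rbfox2 KO group, 7 of the 8 were lowest in Rbfox2 KO 3 and 5 of the 8 highest in Rbfox2 KO 1. Apob, the longest of the 10, ran the other way, lowest in WT 1 and Rbfox2 KO 1 and highest in WT 5 and Rbfox2 KO 3. It made up 4.73% of the counts of the 10 transcripts in WT 1 and 12.4% in WT 5, and 4.95% in Rbfox2 KO 1 and 10.97% in Rbfox2 KO 3. Mttp was also lowest in WT 1 and Rbfox2 KO 1, but it was highest in WT 4 and Rbfox2 KO 2.

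The same libraries differed over long and short genes in general. A length index was taken for each library as the median log2 deviation of 2865 tested genes with a transcript over 5 kb minus that of 1459 protein-coding genes under 1.5 kb, and these include the apolipoprotein genes of such lengths. It was -0.44, 0.0958, -0.11, 0.0740 and 0.45 in WT 1 to 5, against -0.18, -0.11 and 0.23 for Rbfox2 KO 1 to 3. WT 1 and Rbfox2 KO 1 had the lowest index of their groups and WT 5 and Rbfox2 KO 3 the highest, as was the case for Apob. The index did not separate the genotypes (exact permutation p = 0.929). With the index as a covariate in edgeR, an alternative chosen after the data were seen, 0 of the 10 transcripts passed and their log2 fold changes ran from -0.25 for Apoa2 to 0.51 for Apoa4. What part RNA length or its handling has in the levels of these transcripts was not tested further.

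**Figure D3:**
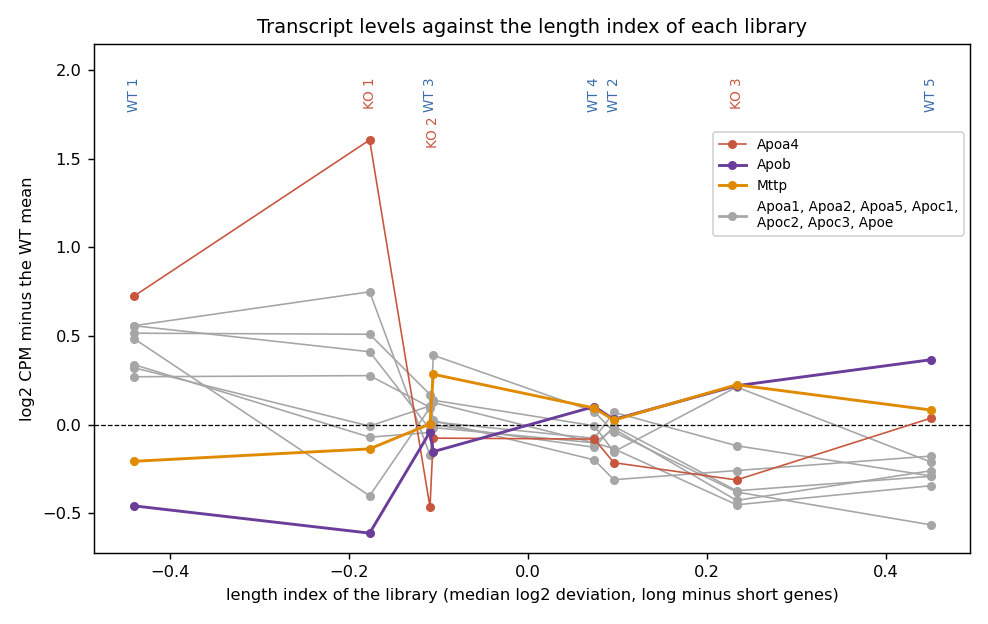
Log2 CPM minus the WT mean (vertical axis) of each transcript against the length index of the library (horizontal axis, log2 units), with 1 line per transcript and the sample names above. Apob runs from low values in WT 1 and Rbfox2 KO 1 to its highest in WT 5, while most of the short apolipoprotein transcripts run from high to low, and Apoa4 peaks in Rbfox2 KO 1.

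The genes most like Apoa4 and Mttp over the 8 samples were taken by the mean absolute difference of centred log2 CPM. For Apoa4, whose own mean deviation was 0.51, they were Ccdc34 (0.14), Anxa2 (0.16) and Mx1 (0.16), all 3 highest in Rbfox2 KO 1 with WT 1 next. Anxa2, for example, was at 39.1 CPM in Rbfox2 KO 1, 21.3 CPM in WT 1 and 8.25 to 15.3 CPM in the other samples. For Mttp, whose own mean deviation was 0.12, they were Mbd1 (0.0309), Tarsl2 (0.0336) and Prep (0.0373), all 3 highest in Rbfox2 KO 2.

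Other genes of lipoprotein metabolism were then described by lists of their roles. Among 10 tested genes of other apolipoproteins, edgeR called 0, and 7 estimates were higher and 3 lower with a median log2 fold change of 0.11. Saa4, a constitutive HDL apolipoprotein, was the 1 gene of this list with an unadjusted p under 0.05 (4.74% of all tested genes). It had 127.6 to 173.8 CPM in WT and 104.1 to 114.8 CPM in Rbfox2 KO, without overlap (exact permutation p = 0.0179, the smallest possible). Its log2 fold change was -0.40 ± 0.11 (SE), and it did not pass (edgeR adjusted p = 0.786). Clu, the chaperone clusterin, was the other of 2 genes in 10 without overlap (3.71% of all tested genes), at 793 to 925 CPM in WT and 952 to 1015 CPM in Rbfox2 KO, with a log2 fold change of 0.17 ± 0.11 (SE). Apom, which carries sphingosine 1-phosphate on HDL, had 91.2 to 138.6 CPM in WT and 121 to 141 CPM in Rbfox2 KO, so the groups overlapped.

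No gene of the machinery that assembles and exports VLDL passed the test. Of 26 such genes, 0 were called by edgeR, 0 had an unadjusted p under 0.05 (4.74% of all tested genes) and 0 had groups free of overlap (3.71% of all tested genes). Their log2 fold changes ran from -0.31 to 0.26, 14 above 0 and 12 below it, with a median of 0.00885. Tm6sf2, needed to lipidate VLDL, averaged 17.6 ± 2.37 CPM (SD, n = 5) in the WT and 21.1 ± 3.61 CPM (SD, n = 3) in the Rbfox2 KO livers. Tmem41b, a lipid scramblase of the endoplasmic reticulum, was at 18.5 ± 2.51 and 15.2 ± 2.70 CPM, and Sar1a, a GTPase of the vesicle coat that exports secretory cargo, at 58.1 ± 2.70 and 63.5 ± 5.86 CPM, with the same n.

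Pltp was the gene of these lists with the largest relative difference. It encodes the phospholipid transfer protein, which moves phospholipid between lipoproteins in plasma. Pltp had 108.9, 99.5, 77.8, 89.2 and 83.5 CPM in WT 1 to 5, while Rbfox2 KO 1 to 3 had 69.8, 50.2 and 55.5 CPM. Every Rbfox2 KO sample lay below every WT sample (exact permutation p = 0.0179, the smallest possible). At a log2 fold change of -0.65 ± 0.14 (SE), the adjusted p was 0.373 by edgeR, which did not pass, and 0.0102 by DESeq2, which did. It stayed negative in all alternatives, from -0.80 without Rbfox2 KO 1 to -0.51 with library totals. Of the 13 genes of plasma remodelling it was the one with an unadjusted edgeR p under 0.05 (4.74% of all tested genes). It was also the one whose groups did not overlap (3.71% of all tested genes). Of the 13 estimates, 10 were below 0, with a median of -0.15. That median was -0.0292 with library totals, where the median of all tested genes was 0.12. Without WT 1 and Rbfox2 KO 1 the plasma remodelling median was -0.0471, against -0.00937 for all tested genes. Pon1, the paraoxonase of HDL, averaged 609 ± 67.4 CPM (SD, n = 5) in the WT and 518 ± 114.7 CPM (SD, n = 3) in the Rbfox2 KO livers, and Gpihbp1, which anchors lipoprotein lipase in capillaries, at 13.6 ± 0.354 and 11.8 ± 1.92 CPM. The log2 fold change of Pon1, -0.23, became -0.0701 without Rbfox2 KO 1.

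Receptors and regulators showed no call. Of 11 tested receptors and adaptors for remnants and HDL, 0 passed by edgeR and 0 had an unadjusted p under 0.05 (4.74% of all tested genes). Of the estimates, 4 were higher and 7 lower, with a median of -0.09. With library totals that median was 0.0169, where the median of all tested genes was 0.12. Lrpap1, a chaperone of these receptors named after its values were seen, was the 1 gene of 11 whose groups did not overlap (3.71% of all tested genes), at a log2 fold change of -0.10 ± 0.0855 (SE). Vldlr, the VLDL receptor, had 3.97 to 10.6 CPM in WT and 4.45 to 5.78 CPM in Rbfox2 KO. Sdc1, a heparan sulphate proteoglycan that binds remnants, had 145.6 to 220.6 and 196 to 225 CPM, and Hspg2, another such proteoglycan, 10.6 to 15.7 and 9.95 to 11.2 CPM. Of 14 transcription regulators of these genes, 0 passed and 0 had an unadjusted p under 0.05, with 9 estimates higher, 5 lower and a median of 0.05. Creb3l3, which activates Apoa4 and Apoc2, differed by 0.20 ± 0.10 (SE) in log2 fold change and Nr1h4, the bile acid receptor, by -0.26 ± 0.15, which became -0.0827 without Rbfox2 KO 1.

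**Figure D4:**
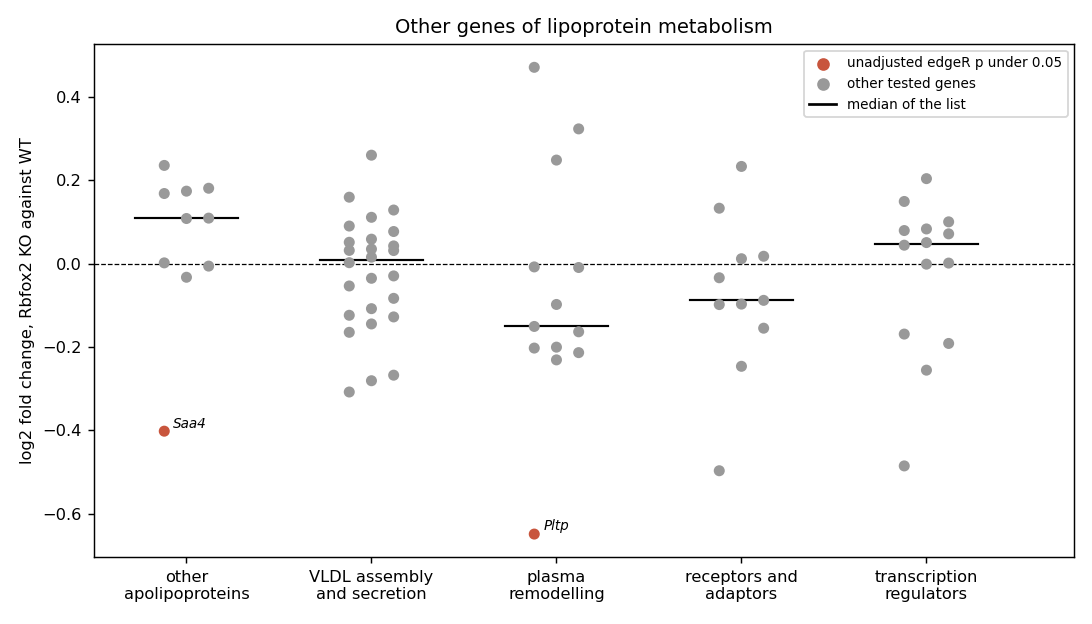
Log2 fold change of Rbfox2 KO against WT (vertical axis, edgeR) of each tested gene in 5 lists of lipoprotein metabolism, with the median of each list as a line and names on the genes with an unadjusted p under 0.05. Saa4 at -0.40 and Pltp at -0.65 are these genes, drawn as coloured points.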

How the data were processed

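RNA from 8 mouse livers was poly(A)-selected and sequenced as paired-end libraries. The deposited values are raw counts per Ensembl gene. The authors aligned reads to GRCm38 with TopHat2 2.0.11 as strand-specific libraries and counted them with featureCounts. Whether counting used strand or reads with several alignments was not given in the sources used here. Groups and sample numbers came from the labels. They number the livers of each group but name no animals. Each liver was taken as 1 mouse, and p-values set the group difference against the variation between these samples.

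From the counts, 14654 of 46078 genes passed filterByExpr and entered a robust quasi-likelihood fit in edgeR 4.0.16 (R 4.3.3, TMM factors, genotype alone, Benjamini-Hochberg over all tested genes). SE is the log2 fold change over the root of F. CPM means were compared by two-sided exact permutation over 56 splits, with a smallest p of 0.0179. Replicates differed by more than sampling noise in every pair. Intervals on shares cover counting error only. Exon lengths came from GENCODE M21. Named genes were the 10 members, Rbfox2, the 3 genes of smallest p per list, the 3 genes most like Apoa4 and Mttp, and overlapping genes. For 1 gene that this rule names, no result is reported here. Scaling, filters, DESeq2 1.42.0, limma-voom of limma 3.58.1, a non-robust fit, the Mup genes, the replicate block and each sample were varied. The procedure was tested on simulated data. Members and lists were chosen with earlier results of these data known.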

Additional observations from a re-analysis of the deposited data

Results flagged for a closer look

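Apoc2 in WT 1 was set apart from the other WT samples. It had 372 CPM against 211 to 249 CPM in WT 2 to 5, a gap of 0.767 of the group's range, past the critical value of 0.71 for 5 samples. It was 1 of 34 values examined in this way, and chance passes about 1 in 20. The length index of WT 1 was the lowest of all 8 libraries, at -0.44, and the part of either in the other was not tested. The Apoc2 values also hold reads that cannot be told from Gm44805.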

How the results depend on the processing

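No alternative called any of the 10 transcripts at an edgeR, DESeq2 or limma adjusted p of 0.05. The cause was not tested for any change given here. With library totals the log2 fold changes of Apoc1 (0.00563) and Apoe (0.0474) reversed, as did their CPM differences (8.42 and 547). Medians became 0.25 for other apolipoproteins, 0.13 for VLDL assembly, -0.0292 for plasma remodelling and 0.0169 for receptors, against 0.12 for all tested genes. With the DESeq2 test Rbfox2 (-1.03) passed, 1 plasma remodelling gene (Pltp) passed and 2 other apolipoproteins had an unadjusted p under 0.05. Over all 14654 genes 722 had such a p by DESeq2. DESeq2 called 59 genes in all, the fit with no filter 6, the length covariate 8 and edgeR 0 (694 at an unadjusted p under 0.05).

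Same-numbered samples deviated from their group means with correlations of 0.163, 0.0484 and 0.170, and 0 of 3 Rbfox2 KO samples correlated best with their own number, so the numbers were not taken as pairs. With the replicate block 0 genes passed and 739 had an unadjusted p under 0.05. The block reversed Apoa1 (-0.0333), Apoc2 (-0.0184) and Apoc3 (-0.0230), and gave 4 VLDL assembly and 2 plasma remodelling genes at an unadjusted p under 0.05.

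With the length index as a covariate, chosen after the data were seen, Rbfox2 passed (-1.01). In that fit 1 of 26 VLDL assembly genes, 1 of 11 receptors and 2 of 14 regulators had an unadjusted p under 0.05. So did 1162 of all 14654 tested genes. Without WT 1 and Rbfox2 KO 1 together, also chosen after the data were seen, Apoa4 (-0.0271), Apoc2 (-0.0772), Apoe (0.0228), Ccdc34 (-0.0454) and Anxa2 (-0.25) reversed, as did the CPM differences of Apoa4 (-35.8), Apoc2 (-11.5) and Apoe (241). The counts at an unadjusted p under 0.05 were then 1 for VLDL assembly, 3 for plasma remodelling, 1 for receptors and 1 for regulators. Over all 14800 genes tested in that fit the count was 715. The plasma remodelling median was -0.0471. With the longest transcript as length, WT levels per kilobase became 11951 for Apoe, 4160.1 for Apoc1, 2157 for Apoc3 and 59.97 for Mttp.

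With each sample left out in turn, log2 fold changes ranged from -0.14 to 0.0177 for Apoe, -0.15 to 0.25 for Apoa1, -0.25 to 0.94 for Apoa4, -0.39 to 0.0156 for Apob, -0.24 to 0.38 for Apoc2, -0.25 to 0.87 for Ccdc34, -0.42 to 0.85 for Anxa2, -0.20 to 0.63 for Mx1, -0.0104 to 0.19 for Mbd1, -0.0137 to 0.16 for Tarsl2 and -0.0193 to 0.16 for Prep. Apoe reversed without WT 1, the last 3 without Rbfox2 KO 2 and the others without Rbfox2 KO 1. CPM differences ranged from -1578 to 195 for Apoe, -485 to 987 for Apoa1, -365 to 2154 for Apoa4, -792 to 35.1 for Apob, -38.8 to 79.4 for Apoc2 and 8.71 to 42.5 for Mttp. The difference of 42.5 for Mttp came without Rbfox2 KO 1, with an exact permutation p of 0.0476. That p was not corrected for the number of such tests, and it was fixed once the lowest Rbfox2 KO sample was left out. The median of the 10 ranged from -0.11 to 0.16. Counts at an unadjusted p under 0.05 ranged from 1 to 2 for other apolipoproteins, 0 to 3 for VLDL assembly, 1 to 3 for plasma remodelling, 0 to 1 for receptors and 0 to 1 for regulators. Over all tested genes they ranged from 509 of 14476 without WT 2 to 972 of 15058 without Rbfox2 KO 2. With 3 Rbfox2 KO samples the 95% intervals of the fold reached down to 0.600 for Apoa2 and up to 3.07 for Apoa4. That of Mttp, 0.908 to 1.32, was narrower. For each transcript, folds inside its own interval were not excluded.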
